A study of Mus musculus with 2 samples.

Results

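The GATA factors and the proteins that work with them in blood cells are represented here by 10 genes: Gata1, Gata2, Gata3, Zfpm1, Tal1, Lmo2, Ldb1, Cbfa2t3, Gfi1b and Lyl1. They were chosen by gene name, older names included, among the gene probes of the array. They have 13 probes of 55659, and the probes of the array carry 34732 names in all. Where no current gene symbol was found, the array's own name was kept, which can be an accession, a probe name or a noncoding locus. Counts and shares over all genes below treat each such name as a gene. RNA of mast cells grown from the bone marrow of C57BL/6 mice was hybridised to 2 one-colour (Cy3) Agilent arrays. On 1 array the cells had received GATA1 siRNA (200 pmol), and on the other they had received control siRNA (200 pmol). Cells of both groups had spent 2 weeks in interleukin 3 alone (10 ng/mL), followed by 2 weeks in which stem cell factor (10 ng/mL) was added to it, and RNA from 2 animals was pooled for each array. The part of the Gata1 transcript that the siRNA matches is not given in the sources used here.

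Signals were scaled by the 75th percentile on each array, which makes a level on 1 array comparable with the same probe's level on the other. Differences are log2 of the GATA1 siRNA level over the control siRNA level, so a negative difference means lower with GATA1 siRNA. With 1 array per siRNA no test between the conditions is possible, no p-value is given, and a difference of 2-fold (1.0 on the log2 scale) serves as a rule of size. The error printed beside a difference is the scanner software's own estimate for the 2 spots, which leaves out all variation between animals, cultures and arrays. It is 0.20 for every probe of these genes except the dimmer Cbfa2t3 probes (0.29 and 0.23). For bright probes, lying within or past it is therefore a nearly fixed cutoff of size. The pooling leaves no value for a single animal.

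Six-base GATA motifs on DNA are read by the zinc fingers of the GATA proteins. GATA1 and GATA2 can bind the same sites, and in red cell precursors GATA1 is known to take over sites that GATA2 held before. Beside GATA1 on DNA sits a complex of the paired helix-loop-helix proteins TAL1 or LYL1, the adaptor LMO2 and the scaffold LDB1. FOG1 (the product of Zfpm1) links GATA1 to the NuRD complex, while ETO2 (the product of Cbfa2t3) and GFI1B bring in other corepressors.

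Most probes of this array lie near the 3′ end of a transcript, and 5 of the 13 probes contain AATAAA, the usual signal for adding the poly(A) tail, against 10.1% of all 55681 probe sequences. The windows below, of 30 bases each, show part of what the hybridisation read for the genes whose probes contain AATAAA, and for Lmo2 and Cbfa2t3. They come from the deposited array files (coordinates in mouse build mm9, 5′ to 3′ on the stated strand), and capitals mark AATAAA. The Zfpm1 window is shared by both of its probes, which have 55 bases in common. No AATAAA lies in the probes of Lmo2 and Cbfa2t3, for which the first bases of each probe are shown. The first and last of these 3 Cbfa2t3 windows lie at bases 4484 and 992 of the same transcript record. The middle window lies at base 2616 of another record, so that position is not on the same scale. By their coordinates, the 3 probes read different stretches of Cbfa2t3 RNA.
Gata1, chrX:7536396-7536425, minus strand: ggtatttggttaAATAAAtgtcagtgtcaa
Zfpm1, chr8:124861116-124861145, plus strand: cccttgacacttAATAAAgacattcggtgt
Ldb1, chr19:46107516-46107545, minus strand: agcagaagacggAATAAAgagactgggcgt
Gfi1b, chr2:28464982-28465011, minus strand: gttgatgtaaatgtaAATAAAggtgggttt
Lmo2, chr2:103821857-103821886, plus strand: cttcattttgaggtgaggcgccccacagat
Cbfa2t3, chr8:125152191-125152220, minus strand: tacttcttgtctctgctactccactgcatg
Cbfa2t3, chr8:125154040-125154069, minus strand: ctcatgagtaagggaagaaactgtgatttt
Cbfa2t3, chr8:125162788-125162817, minus strand: tcgactcgtctgagctcctgctggaagtca

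The label of the cells was set against lists of cell type markers. All 8 mast cell markers were measured, with a median difference of -0.03 and a summed level of 2315 on the GATA1 siRNA array against 2527 on the control siRNA array. The furthest of them from 0 was Tpsb2, a tryptase gene, at -0.55. Of the markers of other cells, the 5 neutrophil genes were all higher with GATA1 siRNA by 0.60 to 0.79 (summed level 106 against 69.8), and the 4 macrophage genes had a median of 0.57 (55.7 against 32.8). The macrophage genes were uneven, from Csf1r at 0.02 over its 3 probes to Cd68 at 1.07. The 5 eosinophil genes had a median of -0.56 (16.6 against 24.0), with 4 below 0 and Siglecf at 0.60. This median is the value of Ccr3, which was dim (signal 24.9 with GATA1 siRNA, 32.8 with control siRNA). Siglecf was dim as well (32.2 with GATA1 siRNA, 18.9 with control siRNA), on the 1 of its 2 probes that was measured. Medians were -0.26 over the 4 megakaryocyte genes (40.6 against 49.7), 0.24 over the 3 basophil genes (216 against 185) and 0.27 over the 4 progenitor genes (256 against 190). The megakaryocyte genes split, with Itga2b (0.25) and Pf4 (0.05) above 0 and Gp1ba (-1.02) and Gp9 (-0.57) below. Among the progenitor genes, Flt3 was at -0.18 and the others were above 0. Of the T cell list 3 of 5 genes were measured (11.05 against 11.8), with Cd3g and Cd8a not well above background. Each summed level adds the highest probe of every gene of a list, so its brightest genes rule the sum and it does not measure the amount of a cell type. In RNA from bulk cultures, fewer cells of a type and less RNA per cell cannot be told apart. The part of these other cells in the differences of the 10 genes was not tested.

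All 13 probes were well above background and unsaturated on both arrays. Gata1, the target of the siRNA and the founding member of the family in blood, was the gene of the 10 whose level differed by more than 2-fold. Its single probe gave a signal of 3930 on the GATA1 siRNA array and 16415 on the control siRNA array. Scaled to each array, the levels were 11.6 with GATA1 siRNA and 54.1 with control siRNA. The difference was -2.23 (scanner error 0.20), so that 21.3% of the control level was left. The array labelled GATA1 siRNA thus held the lower level of the targeted gene.

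The probe behind this value lies at chrX:7536392-7536451 on the minus strand. Among the 1000 measured probes nearest to it in level, the SD of the difference was 0.18. Only 17 of the 28740 measured probes had a lower difference than the Gata1 probe, and by gene it ranked 10 from the lowest of 20402. Its spot is in row 1 of the array, at the edge, and the 29 spots nearby had a median difference of -0.009. No spot touching it was past 4-fold, and the pixels of the spot varied by a coefficient of 0.188 with GATA1 siRNA and 0.165 with control siRNA. Over 10 alternative ways of processing, the Gata1 difference lay between -2.28 and -2.17. Those that only filter probes by brightness cannot change the difference of a single probe, here or for the genes below.

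**Figure D1:**
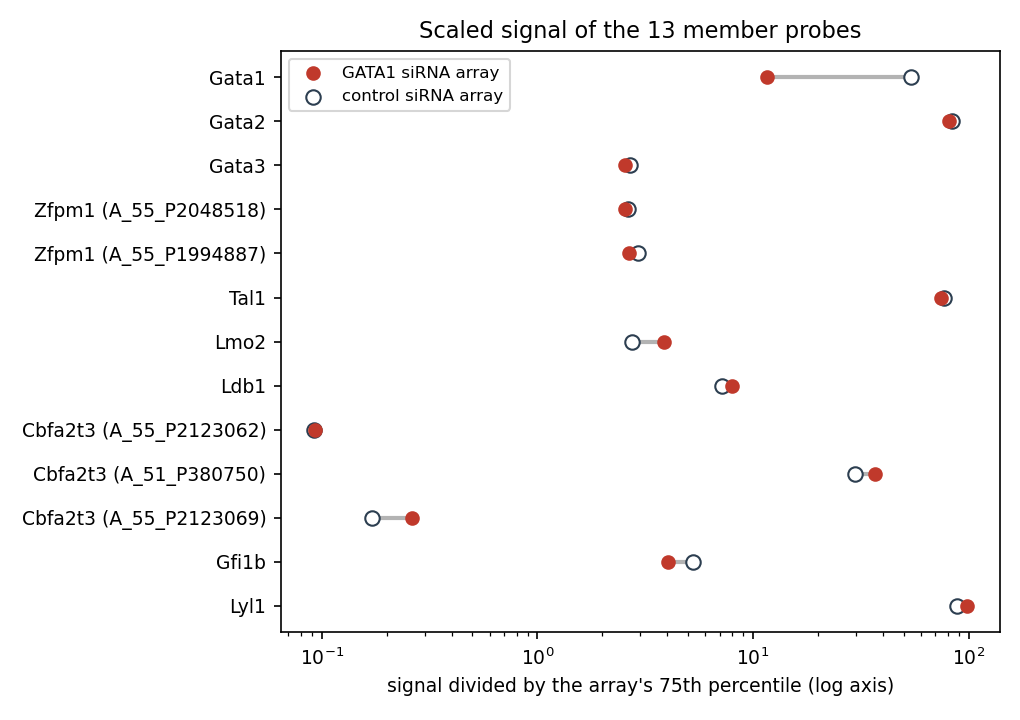
Level of each of the 13 probes (signal divided by the 75th percentile of its array, log axis), with filled circles for the GATA1 siRNA array and open circles for the control siRNA array. The Gata1 pair, 11.6 against 54.1, is the widest; levels of different probes are not comparable with each other.

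The other GATA factors stood at nearly the same level on both arrays. Gata2, the GATA factor of stem cells, progenitors and mast cells, had a level of 80.9 with GATA1 siRNA and 83.5 with control siRNA. Its difference was -0.05 (scanner error 0.20), and its sign depended on the scaling, with a range of -0.11 to 0.02. Loss of GATA1 is known to raise Gata2 in mouse red cell precursors, while here the 2 levels of its probe at chr6:88156362-88156421 lay within 1.03-fold of each other. Gata3, the GATA factor of T cells and type 2 lymphoid cells, had a level of 2.56 with GATA1 siRNA and 2.68 with control siRNA. Its difference was -0.07 (range -0.10 to -0.01; probe at chr2:9779551-9779610). Measured T cell markers differed by a median of -0.14 on the same arrays.

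FOG1, the zinc finger partner that binds the amino-terminal finger of GATA1, was read by both Zfpm1 probes. The probe at chr8:124861087-124861146 had a level of 2.56 with GATA1 siRNA and 2.63 with control siRNA, a difference of -0.04 whose sign depended on the scaling (range -0.07 to 0.02). At chr8:124861092-124861151 the level was 2.66 with GATA1 siRNA and 2.92 with control siRNA, a difference of -0.14. The gap of 0.10 between overlapping probes is as large as their mean, -0.09, and is close to the median SD of 0.10 between probes of the same gene over 5666 genes with several measured probes. Both values lay within the scanner error of 0.20.

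The DNA-binding and bridging parts of the LMO2-LDB1-TAL1 complex had small differences of both signs, apart from Lmo2. Tal1, the helix-loop-helix protein at the core of the complex, had a level of 74.6 with GATA1 siRNA and 76.9 with control siRNA. Its difference was -0.04 (range -0.12 to 0.02, the sign again depending on scaling; chr4:114744219-114744278, plus strand). Lyl1, the close relative of Tal1 that can take its place, had 98.3 with GATA1 siRNA and 88.4 with control siRNA. That difference of 0.15 (range 0.09 to 0.22, chr8:87228531-87228590, plus strand) was inside the scanner error of 0.20. The 1000 probes nearest in level had a median of 0.07 and an SD of 0.13 around it, so Lyl1 lay inside their spread.

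Lmo2, the LIM-domain adaptor that ties GATA1 or GATA2 to TAL1, was the partner gene with the largest difference among the 9. Its level was 3.87 with GATA1 siRNA and 2.76 with control siRNA, which is 1.40-fold higher. The difference of 0.49 was past both the scanner error (0.20) and the SD of the 1000 probes nearest in level (0.20), and it lay between 0.45 and 0.55 under all 10 alternatives run. It was higher than 96.8% of measured probes and short of the 2-fold rule. Ldb1, the scaffold that joins such complexes on distant DNA sites, had a signal of 2720 with GATA1 siRNA and 2185 with control siRNA (chr19:46107487-46107546). Its difference of 0.15 (range 0.10 to 0.21) was within the scanner error, and 1 of the spots touching it was past 4-fold.

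The corepressor genes went opposite ways. Cbfa2t3 encodes ETO2, a repressor of the complex in immature cells, and was read by 3 probes. The brightest, at chr8:125154010-125154069, had a level of 36.8 with GATA1 siRNA and 29.7 with control siRNA, a difference of 0.31 (scanner error 0.20, range 0.25 to 0.37). The 53 spots near it on the array, of any brightness, had a median difference of 0.09 and an SD of 0.535, wider than this difference. The other two Cbfa2t3 probes are near the lower end of what the array can read.

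At chr8:125162758-125162817 the Cbfa2t3 signal was 88.7 with GATA1 siRNA and 51.8 with control siRNA, a difference of 0.61 (scanner error 0.23). This was the only partner probe past 1.5-fold, at 1.53-fold higher. With another background correction it was 0.28. At chr8:125152161-125152220 the signal was 31.6 with GATA1 siRNA and 27.8 with control siRNA, a difference of 0.02 (scanner error 0.29; range -0.06 to 0.13). Probes as dim as these varied more, with an SD of 0.40 and 0.41 over the 1000 nearest in level. The mean over the 3 probes was 0.31 with an SD of 0.29, so the spread between probes is nearly as large as the gene's value.

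Gfi1b encodes a zinc finger repressor that recruits the LSD1-CoREST complex. It had the lowest difference of the 9 partners. Its level was 4.05 with GATA1 siRNA and 5.24 with control siRNA, 1.30-fold lower (probe at chr2:28464982-28465041, minus strand). The difference of -0.37 was past the scanner error (0.20) and the SD of its 1000 nearest probes (0.20), stayed between -0.41 and -0.31 under 10 alternatives, and was lower than that of all but 8.28% of measured probes. The 59 spots near it on the array, of any brightness, had a median difference of -0.05 and an SD of 0.61, wider than the Gfi1b difference.

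**Figure D2:**
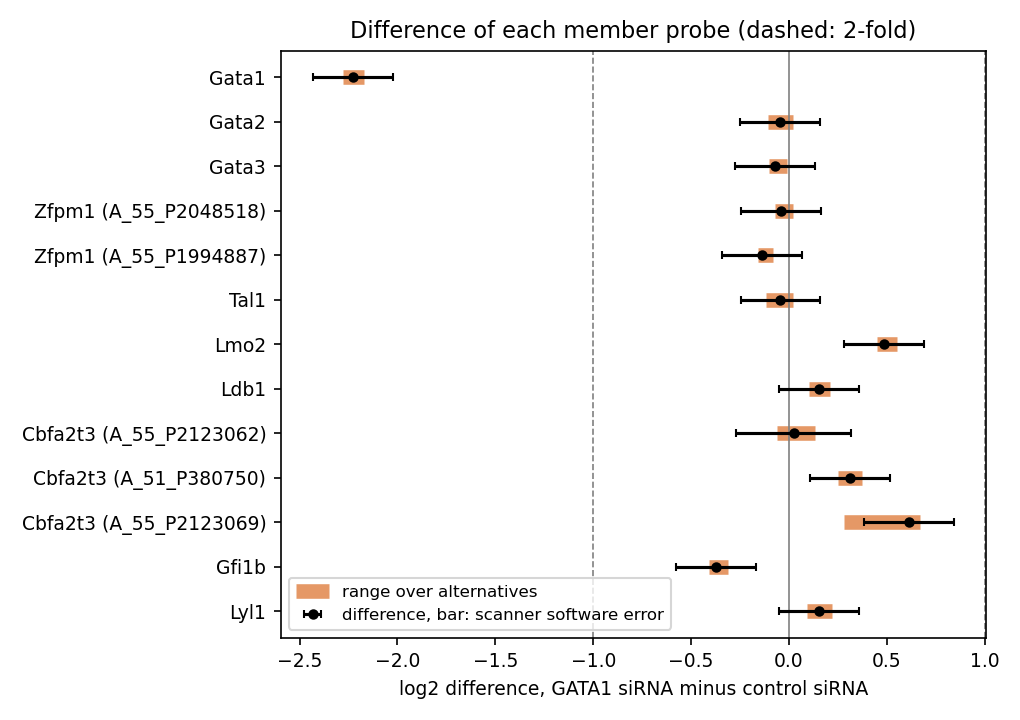
Difference of each of the 13 probes (log2, GATA1 siRNA minus control siRNA), with bars for the scanner software's error and orange bands for the range over the alternative ways of processing. Gata1 lies at -2.23, past the dashed 2-fold line; the partner probes lie between -0.37 and 0.61.

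Counted together, 1 of the 13 probes was 2-fold lower with GATA1 siRNA and 0 were 2-fold higher. Over all 28740 measured probes, 0.612% were 2-fold lower and 0.338% were 2-fold higher. The 1 probe is that of the gene the siRNA was aimed at. At 1.5-fold, where 3.19% of all probes were lower and 1.92% higher (5.11% in all), the same Gata1 probe was lower and 1 Cbfa2t3 probe was higher. The 12 probes of the 9 partner genes split evenly, with 6 above 0 and 6 below 0, and a median of -0.0085 beside 0.011 for all measured probes. The split depends on the scaling, with 9 above 0 and 3 below by the authors' table. Of these 12, 8 lay within the scanner error, and the 4 past it were the Lmo2 probe, the Gfi1b probe and 2 Cbfa2t3 probes. By gene, 4 partners were above 0 and 5 below, 6 were within 0.2 of 0, and 0 were past 1.5-fold, against 1.83% of all genes that were higher and 2.76% that were lower (4.59% in all). Their median was -0.04, beside 0.012 for all 20402 genes measured.

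**Figure D3:**
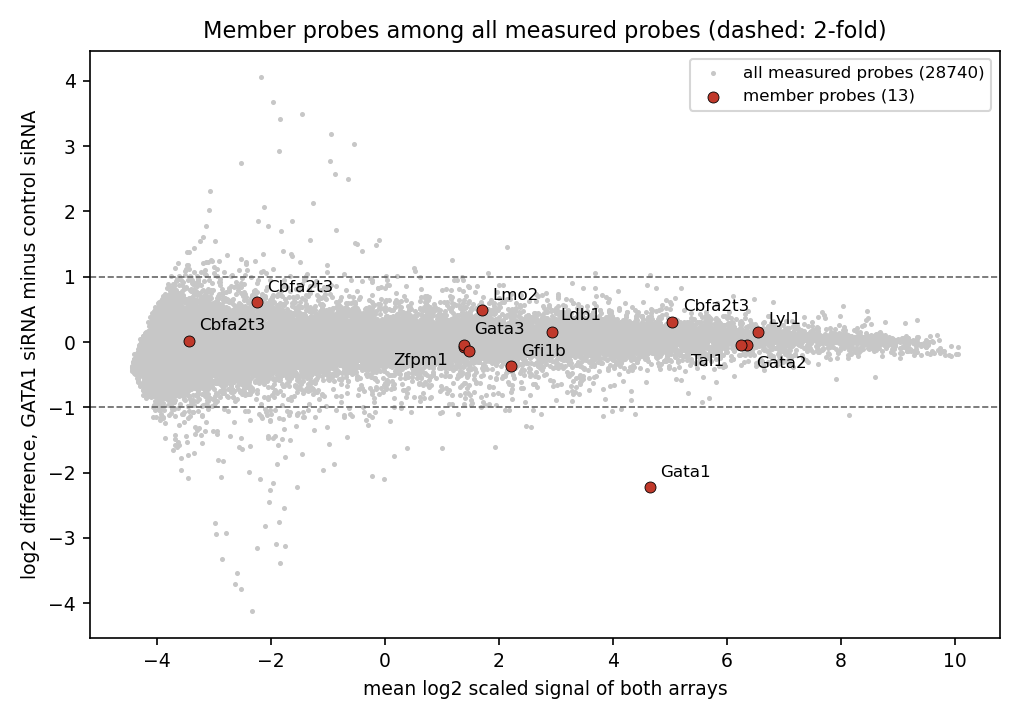
Difference of every measured probe (log2, GATA1 siRNA minus control siRNA) against its mean log2 level on both arrays, with the 13 probes of the 10 genes in red. Gata1 stands apart at -2.23, while the 12 partner probes lie inside the grey cloud; the cloud widens to the left, where probes are dim.

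How firmly these values can be read depends on brightness. For 237 probes printed several times on each array, the SD of the difference between repeats had a median of 0.15 among the dimmest (control siRNA signal up to 316) and 0.034 among the brightest (1452 and above). The probes of Gata1, Gata2, Tal1, Lyl1, Ldb1 and Gfi1b and the brightest Cbfa2t3 probe belong to the bright range by their control siRNA signal. All 13 probes were printed once, so none has repeats of its own. Differences such as that of Lmo2 exceed this within-array repeat error, but the spread between cultures is unknown. Spike-in control probes, which do not read RNA of the cells, give a check between the 2 arrays. The 9 that were well above background differed by -0.56 to 0.18, with a median of 0.12. The lowest of them lies further from 0 than Lmo2 or Gfi1b.

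GATA motifs near the start sites of the genes were looked up in RefSeq promoter sequences (assembly GRCm38.p6, 250 bases before to 50 after each start), a newer build than that of the probes. The letters searched on both strands were AGATAA, the same motif beginning TG (TGATAA), and both forms ending in G in place of the last A (AGATAG as well as TGATAG). Of the 10 genes, 9 have 14 promoters in the table, and Lmo2 has no entry. Of these promoters 5, from 5 genes, hold a motif. Among all 32851 promoters listed, 29.8% do. The motif of Gata3 lies after its start and is not shown. Those of the other genes are printed with the motif in capitals, on the gene's own strand, where TTATCT is the motif AGATAA, and the form TTATCA the motif TGATAA, read from the opposite strand.
Tal1, chr4:115056209-115056238, plus strand: ctatagagtcttTTATCTttgagcaattcc
Ldb1, first motif, chr19:46037291-46037320, minus strand: gctcaactgtTTATCTggtgggccgcaccc
Ldb1, second motif, chr19:46037253-46037282, minus strand: cgccagccccccTTATCTttctatcccttg
Cbfa2t3, chr8:122699210-122699239, minus strand: acccccaccgcaTTATCActgtgacacagc
Gfi1b, chr2:28622085-28622114, minus strand: tctgtgaagtttTGATAAgcaaatgtggct

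Genes with a motif had differences in both directions: Gfi1b -0.37, Gata3 -0.07, Tal1 -0.04, Ldb1 0.15 and Cbfa2t3 0.31. Gata1, Gata2, Zfpm1 and Lyl1 had no such letters in these windows, and their differences were -2.23, -0.05, -0.09 and 0.15. A match describes the letters only and says nothing of binding, and sites outside these windows were not examined.

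Probes near the 10 genes were read to see whether transcripts of the same stretch of chromosome differed with them. Within 50 kb of the 13 probes, the array annotation places 44 other probes, of which 25 were measured. Past 2-fold, 1 was lower and 0 were higher, beside 0.612% and 0.338% of all measured probes, and the 1 lies near Gata1. It reads a noncoding transcript annotated on the plus strand, opposite to Gata1, and its signal was 143 on the GATA1 siRNA array and 529 on the control siRNA array. The difference of -2.06 (scanner error 0.21) is of nearly the same size as that of Gata1, and it was -1.68 with another background correction. The probe lies 31490 bases from the Gata1 probe, and none of the spots touching it was past 4-fold. Its sequence is shown whole because it is the only measured neighbour past 2-fold.
Noncoding transcript, chrX:7567941-7568000, plus strand: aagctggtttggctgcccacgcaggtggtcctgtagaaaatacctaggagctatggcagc

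Other transcripts around Gata1 differed less or in the other direction. Hdac6, a cytoplasmic deacetylase gene, was read by overlapping probes on the other side of Gata1. One of them had a signal of 1544 with GATA1 siRNA and 913 with control siRNA, a difference of 0.59, and 1 spot touching it was past 4-fold. The other had 1492 with GATA1 siRNA and 943 with control siRNA, a difference of 0.50. Both Hdac6 values were thus higher with GATA1 siRNA, and neither reached 2-fold.

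Pcsk1n, an inhibitor of a prohormone convertase, had 219 with GATA1 siRNA and 237 with control siRNA, a difference of -0.28. Glod5 was well above background with GATA1 siRNA alone (signal 23.1, against 5.22 with control siRNA). This gives a bound of 1.36-fold higher, beside a scanner error of 0.90. Such a bound sets the bright level against the lowest signal that counts as well above background, and it leaves out the error of the readings. Eras, a Ras relative of stem cells, had no reading well above background with either siRNA. Of 6 probes for short noncoding transcripts on the minus strand, 0 were measured, and 1 was above background with control siRNA alone. Its signal was 12.3 with GATA1 siRNA and 20.8 with control siRNA, a bound of 1.75-fold lower (scanner error 0.44).

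Around the other 9 genes no neighbour passed 2-fold. Their 32 neighbouring probes, 21 of them measured, ranged from -0.42 to 0.45 with a median of 0.03. Near Lyl1, 9 measured probes ranged from -0.24 to 0.45 with a median of 0.10, beside 0.15 for Lyl1 itself, and the nearest, an Nfix probe 169 bases away, differed by 0.20. Near Tal1, Pdzk1ip1 differed by 0.11 and 0.15 and Stil by 0.02, beside -0.04 for Tal1. Near Gfi1b, both probes of Gtf3c5, a subunit of an RNA polymerase III factor, were at -0.08 and -0.09, beside -0.37 for Gfi1b.

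**Figure D4:**
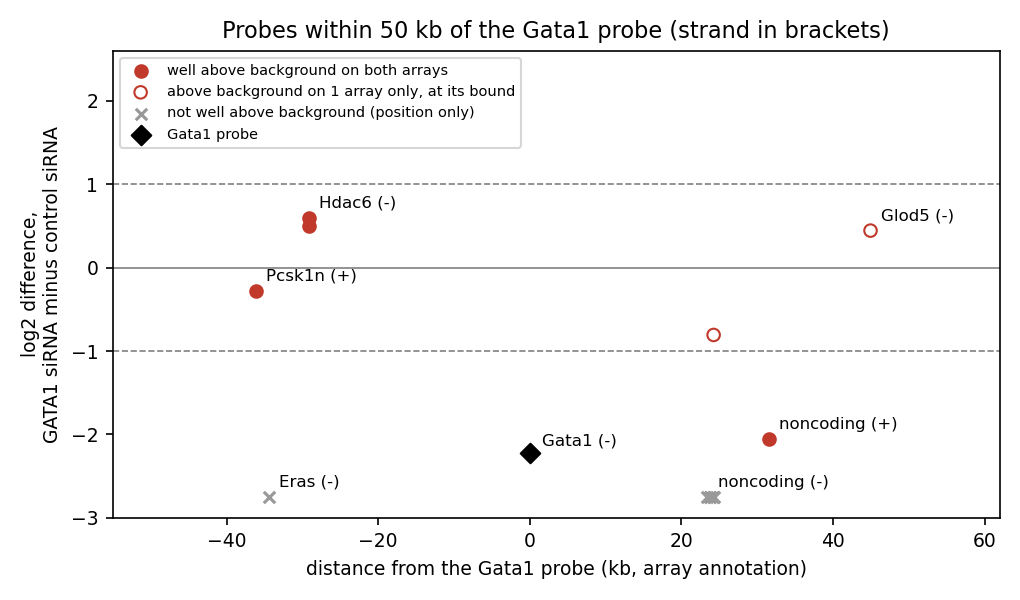
Difference (log2, GATA1 siRNA minus control siRNA) of probes within 50 kb of the Gata1 probe against their distance from it, with filled circles for probes measured on both arrays, open circles at the bound for probes above background on 1 array, and crosses for positions of unmeasured probes. Gata1 at -2.23 and the noncoding probe at -2.06 lie low, and the Hdac6 pair at 0.59 and 0.50 lies above 0.

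Further parts of these complexes and related factors made a list of 50 genes, of which 42 were measured. None was past 2-fold in either direction, where 0.902% of all genes were. In the list 26 genes were above 0 and 16 below, spread around a median of 0.07 between -0.41 and 0.59. All genes measured had a median of 0.012, and bright probes had medians above that, such as 0.07 for the 1000 nearest to Gata2 in level. Gata4, Gata6 and Zfpm2, the GATA and FOG genes of other tissues, gave no signal well above background with either siRNA, while Gata5 differed by -0.10 and Trps1, a repressor with a GATA-type finger, by -0.17. Lmo1, Lmo3, Ldb2 and Tal2, relatives of the LMO2, LDB1 and TAL1 genes, likewise stayed unmeasured. Thus of each family of adaptor, scaffold and helix-loop-helix partner the array read Lmo2 with Lmo4, Ldb1, and Tal1 with Lyl1.

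Of the helix-loop-helix partners of TAL1, Tcf3 and Tcf12 were at -0.11 and -0.10. Tcf4 had the largest difference of the list, 0.59, with a signal of 116 with GATA1 siRNA and 68.5 with control siRNA on the 1 of its 2 probes that was measured, and it was -0.18 when the unmeasured probe was counted. Runx1t1, the relative of Cbfa2t3 that encodes ETO, had 93.2 with GATA1 siRNA and 110 with control siRNA, a difference of -0.41. This is opposite in sign to the 0.31 of Cbfa2t3, and both Runx1t1 signals were dim. The 9 measured paralogs and further parts of this complex, these 4 included, had a median of 0.02.

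The partners of the repressors varied little. The 7 genes of the GFI1B-LSD1-CoREST complex ranged from -0.16 (Rcor3) to 0.20 (Hmg20b), with Kdm1a, the LSD1 gene, at 0.11 and Gfi1, the relative of Gfi1b, at -0.09. The 10 NuRD genes, reached through FOG1, ranged from -0.002 to 0.19 with 9 of 10 above 0 and a median of 0.08, inside 1.5-fold throughout. Mbd3, the lowest of them, was higher than 47% of all genes. Bright probes in general lay above 0: the 1000 probes nearest in level to Ldb1 and to Tal1 had medians of 0.05 and 0.07. Coactivators, among them the acetyltransferase genes Crebbp (-0.07) and Ep300 (-0.17) and the bromodomain gene Brd3 (0.12), had a median of 0.007 over 6 genes.

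Other blood transcription factors were the subgroup of this list with the highest median, 0.14 over 8 measured genes. Nfe2, a leucine zipper factor of red cells and megakaryocytes, had 8941 with GATA1 siRNA and 6022 with control siRNA, a difference of 0.40. Erg, an ETS factor of stem cells and megakaryocytes, had 546 with GATA1 siRNA and 388 with control siRNA on its brighter probe, and its mean over 2 probes was 0.37. Spi1, which encodes PU.1, the factor that GATA1 is known to oppose, differed by 0.19, and Runx1 by -0.17. Klf1, a red cell factor, was not measured with either siRNA. Higher levels of the neutrophil markers, and of the macrophage markers apart from Csf1r (0.02), stood on the same array as these higher values. The part of those cells in these values was not tested.

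Genes known as targets of GATA1 in red cells, megakaryocytes, eosinophils or mast cells showed no common direction. Of 25 measured among 29 on the array, 1 was 2-fold higher and 2 were 2-fold lower, where 0.294% and 0.608% of all genes were. In the list 14 were above 0 and 11 below, and the median was 0.03. Epor, the erythropoietin receptor gene, had 53.3 with GATA1 siRNA and 142 with control siRNA, a difference of -1.58, which was -0.99, just short of 2-fold, with another background correction. Gp1ba, a platelet adhesion receptor chain, had 4223 with GATA1 siRNA and 7638 with control siRNA, a difference of -1.02 that other scalings put between -1.08 and -0.96. These were the lower target genes past 2-fold, and each rests on 1 probe. Gp1ba is also among the megakaryocyte markers, which split in sign.

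Hba-a2, an alpha globin gene, had 1225 with GATA1 siRNA and 546 with control siRNA, a difference of 1.0 that lay on either side of the 2-fold line under other ways of processing (0.95 to 1.06). Its near-identical copy Hba-a1 was at 0.69, and whether their probes also read each other's RNA was not tested. Slc4a1, the anion exchanger gene of red cells, was at 0.30 beside them, and the part of red cells in these values was not tested. Epx, the eosinophil peroxidase gene, was next in size at -0.85 (445 with GATA1 siRNA, 713 with control siRNA). The eosinophil markers, of which Epx is itself 1, had a median of -0.56, the value of the dim Ccr3. Siglecf goes the other way. Targets that mast cells use, Kit (0.03), Cpa3 (0.04), Ms4a2 (0.01) and Fcer1a (-0.17), lay within 0.2 of 0. Il1rl1, the interleukin 33 receptor gene of mast cells, was lower at -0.32, with its 3 probes between -0.38 and -0.24.

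**Figure D5:**
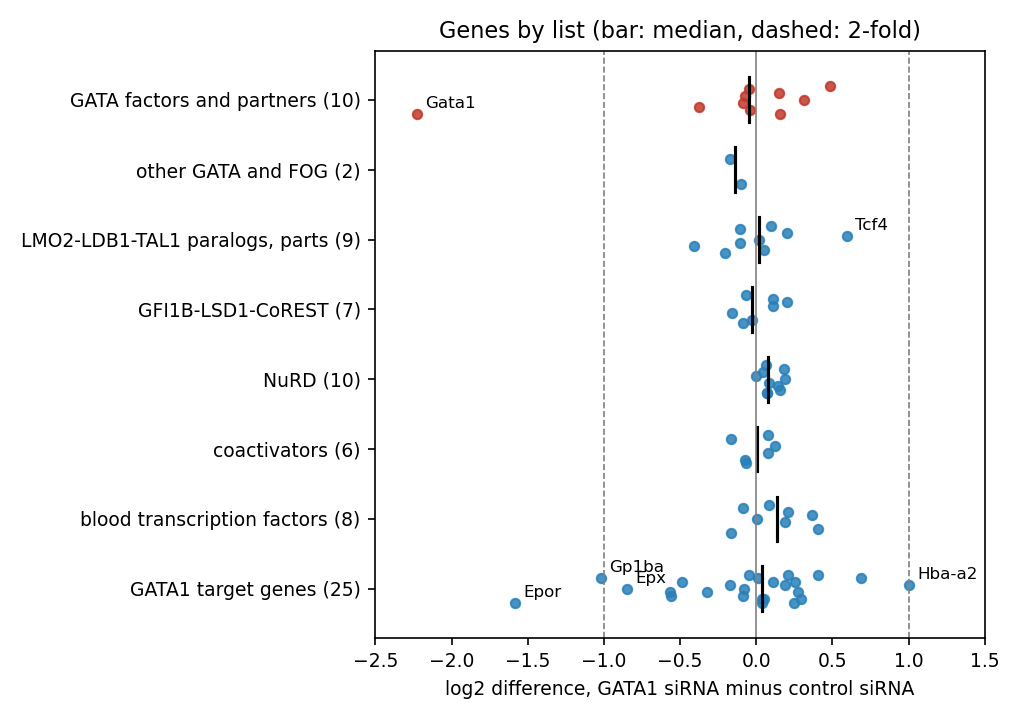
Differences of measured genes (log2, GATA1 siRNA minus control siRNA), 1 point per gene, for the 10 genes, the 6 groups of further complex parts and the GATA1 target list, with black bars at the medians. Gata1 (-2.23), Epor (-1.58), Gp1ba (-1.02) and Hba-a2 (1.0) lie at or past the dashed 2-fold lines, and the complex parts lie between them.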

How the data were processed

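The deposited spot values are intensity readings in scanner units made by the authors with Agilent Feature Extraction 10.7.3.1, per the file headers, background-subtracted and detrended, with no scaling between arrays. The authors also deposited a table of each array's intensity divided by its median, used as an alternative. Both arrays lie on 1 slide. Control spots and 234 outlier spots were left out here, repeats were averaged, and each array was divided by its 75th percentile (340.0 for GATA1 siRNA, 303.2 for control siRNA). A probe was measured where well above background (55.2% of probes with GATA1 siRNA, 52.7% with control siRNA) and unsaturated on both arrays. A gene is the mean of its measured probes, and the 24289 probes that keep the array's own name are grouped by that name. Coordinates and names are the array annotation's (mm9), with older symbols updated from RefSeq.

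With 1 array per group no p-value was computed. Named are the 10 genes with every probe, list genes past 2-fold with the 4 largest differences of each list, neighbours past 2-fold and named genes within 50 kb of Gata1. Other list members and neighbours were named after their values were seen. The 10 genes and all lists were chosen with earlier results of these data known. The result of 1 marker list is not reported here. Alternatives used limma 3.58.1 (normexp offset 50, R 4.3.3), other scalings, filters and size rules. The code (Python 3.11.15) was tested on simulated data.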

Additional observations from a re-analysis of the deposited data

How the results depend on the processing

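No paired analysis was possible because each siRNA has 1 array. The single array per siRNA, with RNA of 2 pooled animals, limits every value: none has a replicate check. Of 259 single differences recomputed under the alternatives, 253 moved by less than the scanner error, 6 moved by more and 0 of those called past 2-fold changed sign. Part of the 253 could not move: filters on brightness leave the difference of a single probe as it was. Keeping outlier spots or leaving out marked places moved the median of all probes by only 0.002. The 6 were the dim Cbfa2t3 probe at 0.61 (0.28 with normexp), the Cbfa2t3 mean (0.46 over brighter probes only), Tcf4 (0.30 with normexp, -0.18 without a filter), Epor (-0.99 with normexp) and the noncoding probe near Gata1 (-1.68 with normexp). Among the 10 genes, Gata1 was past 2-fold under all alternatives run, and at 1.5-fold 2 of the 13 probes counted. Over all probes, 273 were past 2-fold, 71 with normexp, 3867 with no filter on dim probes, 143 over brighter probes only, 1469 at 1.5-fold and 69 at 3-fold. The split of these was 97 higher and 176 lower, against 122 and 146 by the authors' scaling, 120 and 150 after loess, 84 and 188 scaled to spike-in controls, and 62 and 152 with marked places left out. Of the further complex genes 0 were past 2-fold, 1 with no filter and 1 at 1.5-fold. Of the neighbouring probes 1 was, and 5 with no filter. Of the GATA1 target genes 3 were (1 higher, 2 lower), with 0 under normexp, 5 at 1.5-fold and 0 at 3-fold. By quantiles, by loess and scaled to spike-in controls, an alternative chosen after seeing the data, 0 of these were higher and 2 lower, and by the authors' scaling 1 was higher and 1 lower. Each scaling moved the median of all probes by at most 0.061. Dim probes are read less precisely: the SD of repeats was 0.15 among the dimmest and 0.034 among the brightest. The causes of these shifts were not tested.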
